A study of Homo sapiens with 12 samples.

Results

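PANC-1 is a human cell line from a pancreatic ductal adenocarcinoma, and the cells measured here stably carried an E47 protein that tamoxifen switches on. Of the 12 Illumina bead arrays of the series, 8 are compared here, namely 4 of cells given 4 µM tamoxifen for 48 h and 4 of untreated cells, chosen by their sample titles. The other 4 arrays, of cells given 1 µM tamoxifen for 48 h, entered the filter on dim probes and the estimate of the spread, and are otherwise quoted as a description. Total RNA was labelled as cRNA, and one intensity per probe was deposited for each array.

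Both groups carried the inducible E47, so every difference below is between tamoxifen-treated and untreated cells of one engineered line. The samples include no cells without the inducible E47 that received tamoxifen, and the labels give neither a vehicle nor a time for the untreated cells. Effects of E47, of tamoxifen itself and of any difference in handling cannot be told apart in this design. Nothing in the labels states that the 4 arrays of a group came from separate cultures. The p-values therefore cover the variation among these arrays, and that variation may be technical.

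E47 is encoded by TCF3 and is one of the E proteins, basic helix-loop-helix transcription factors that pair with each other or with tissue-specific partners. The pairs bind short palindromic DNA sequences called E-boxes, written CANNTG, with CAGCTG and CACCTG among the sites E47 is known to favour. ID proteins lack a DNA-binding region and hold E proteins inactive. In lymphocytes E47 drives early B- and T-cell programmes, and in the exocrine pancreas its partners include factors that specify acinar cells.

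After the filter on dim probes, 19713 features were tested, of which 12954 were named genes and 6759 were probes without a gene name. At an adjusted p below 0.05 (limma, Benjamini-Hochberg over all features), 3922 features rose in 4 µM cells and 3858 fell, which was 19.9% and 19.6% of those tested and 39.5% in all. Among named genes alone the shares were 24.8% higher (3216 genes) and 22.2% lower (2875 genes), and these are the background for the gene groups below. The other 6863 of the 12954 named genes did not pass. Of the 10136 named genes above background on all 8 arrays, 25.0% rose and 25.8% fell. The median log2 fold change over all features was -0.03, and the changes of at least 2-fold were 885 rises (4.49%) and 651 falls (3.3%), 7.79% of features together. The deposited intensities had nearly identical distributions on all arrays, with medians of 119.89 to 120. A shift common to most genes could therefore not appear, and every change is relative to the bulk of features. The median near 0 and the similar counts of rises and falls partly reflect this. The largest rises exceeded the largest falls: 203 named genes rose at least 4-fold (1.57%), whereas 72 fell at least 4-fold (0.556%). For 6663 features, 33.8% of those tested, the change was called and all 4 treated arrays lay on one side of all 4 untreated arrays. Correlations between arrays of the same group were 0.991 or higher, and those between a treated and an untreated array were 0.952 or lower.

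**Figure D1:**
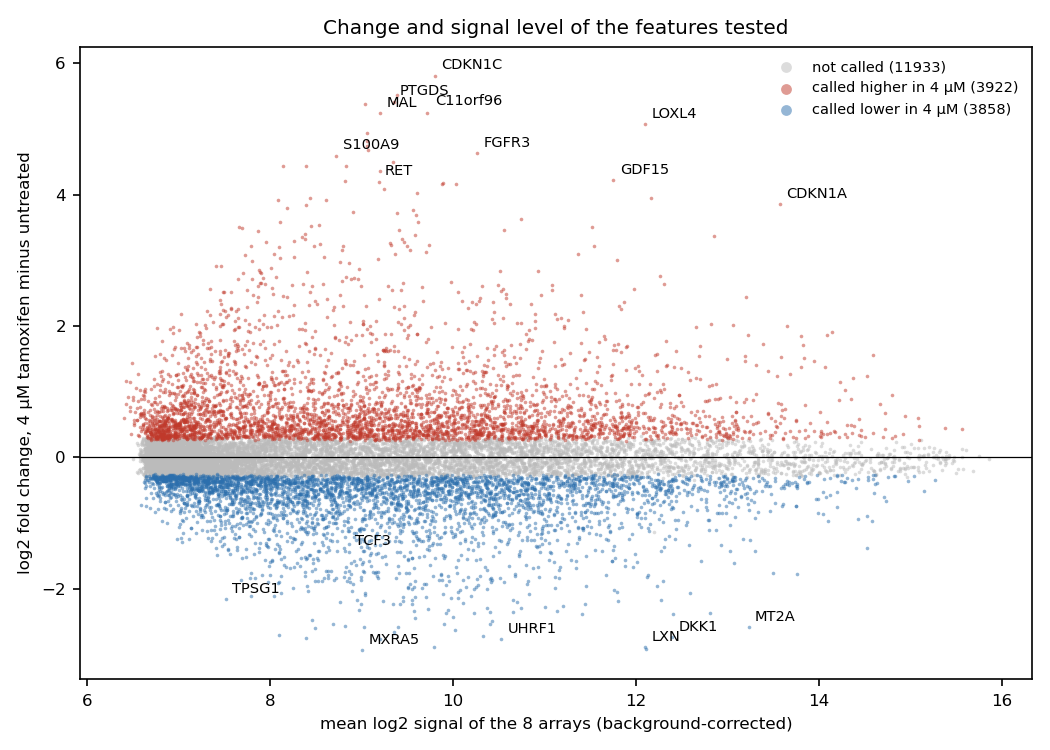
Each point is one of the 19713 features tested. The horizontal axis is the mean background-corrected log2 signal of the 8 arrays, and the vertical axis is the log2 fold change, 4 µM tamoxifen minus untreated. Red points were called higher in 4 µM cells (3922), blue points lower (3858) and grey points were not called. The rises reach beyond 5 on the log2 scale while no fall goes below -3.

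The epithelial character of the cells was checked with marker genes. Whether the line was PANC-1 was not tested. The keratins KRT8, KRT7 and KRT19, filament proteins of simple and ductal epithelium, were above background on all 8 arrays, KRT7 by less than 1 log2 unit on the untreated ones, and rose modestly, with log2 fold changes of 0.87, 0.83 and 0.64. The ductal factor SOX9 and the adhesion protein EPCAM had log2 fold changes of 0.34 and 0.30 with overlapping groups, and leaving out single arrays ended both calls (adjusted p up to 0.146 and 0.131). The other 2 detected EPCAM probes were not called. CDH1, the epithelial adhesion protein E-cadherin, fell by 1.27 on the log2 scale. Of 31 markers of leukocytes, endothelium, fibroblasts, red cells and nerve sheath with a probe, 14 were tested and 4 were above background on all 8 arrays. The fibroblast collagen COL1A1 is among those that rose (log2 fold change 2.02 ± 0.12), and the macrophage markers CD68 and CD14 fell (log2 fold change -1.24 ± 0.11, and log2 fold change -1.07 ± 0.12). The leukocyte gene PTPRC, the T-cell genes CD3D and CD3E and the endothelial genes PECAM1 and CDH5 did not pass the filter on dim probes.

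TCF3 itself, which encodes E47 and its splice partner E12, fell. Its probe gave 8.31, 8.09, 7.92 and 8.25 in 4 µM cells, against 9.64, 9.43, 9.48 and 9.77 in untreated cells, on the background-corrected log2 scale used throughout. The groups did not overlap, and the log2 fold change was -1.44 ± 0.12 (SE, n = 4 arrays a group; adjusted p = 3.92e-12). Whether this probe lies in the part of the transcript that the introduced E47 shares was not tested, so it does not check the induction. ESR1, the estrogen receptor that tamoxifen binds in breast cells, was not above background on enough arrays to be tested.

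The steepest rise among genes measured above background on all 8 arrays was in C11orf96. It gave 12.37, 12.35, 12.20 and 12.41 in 4 µM cells, against 7.26, 6.82, 7.19 and 7.09 in untreated cells, a log2 fold change of 5.24 ± 0.12 in which the untreated values sit close to the background threshold of 6.79. LOXL4, a lysyl oxidase-like enzyme that crosslinks collagen and elastin, was well above background in both groups. It gave 14.39, 14.89, 14.71 and 14.57 in 4 µM cells, against 9.55, 9.72, 9.67 and 9.33 in untreated cells, with the groups more than 4 log2 units apart (log2 fold change 5.07 ± 0.12, adjusted p = 1.82e-27).

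FGFR3, a receptor for fibroblast growth factors, gave 12.75, 12.50, 12.51 and 12.57 in 4 µM cells, against 8.07, 7.98, 8.02 and 7.72 in untreated cells with its brightest probe (log2 fold change 4.64 ± 0.11). Its other detected probe had a log2 fold change of -0.11 and was not called, so the rise rests on one probe of the pair. RET, the receptor kinase for GDNF-family ligands, gave 11.46, 11.33, 11.24 and 11.12 in 4 µM cells, against 7.17, 7.11, 7.10 and 6.97 in untreated cells. All treated arrays were far above all untreated ones (log2 fold change 4.20 ± 0.11). GDF15, a secreted stress-responsive member of the TGF-beta superfamily, gave 14.03, 13.83, 13.86 and 13.73 in 4 µM cells, against 9.61, 9.62, 9.65 and 9.70 in untreated cells, again without overlap (log2 fold change 4.22 ± 0.10).

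NPTX1, a neuronal pentraxin that gathers AMPA receptors at synapses, gave 11.67, 11.60, 11.63 and 11.47 in 4 µM cells, against 6.88, 7.32, 7.20 and 6.99 in untreated cells with its brightest probe (log2 fold change 4.50 ± 0.11). The other detected NPTX1 probes rose by 0.82 and 0.88, with means of 7.04 and 6.82 in 4 µM cells, near the background threshold. SEPTIN3, a septin known mainly from brain, gave 11.38, 11.38, 11.33 and 11.42 in 4 µM cells, against 7.24, 6.88, 7.17 and 6.79 in untreated cells, and CABP7, a calcium-binding protein related to calmodulin, gave 12.13, 12.01, 11.93 and 11.81 in 4 µM cells, against 7.88, 7.95, 7.90 and 7.45 in untreated cells. With the probe whose values are given, the lowest treated array of each gene exceeded the highest untreated array by more than 3 log2 units. At 1 µM the mean of NPTX1 was 11.94 and that of SEPTIN3 was 10.38.

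Other members of the 15 largest rises act in signalling and transport. RRAGD, a Rag GTPase that brings mTORC1 to the lysosome, changed by 4.17 ± 0.11 on the log2 scale, and RASD1, a Ras-like GTPase induced by glucocorticoids, by 4.09 ± 0.12. SOX8, a SoxE transcription factor, changed by 4.17 ± 0.12. SPNS2, which exports sphingosine-1-phosphate, changed by 4.03 ± 0.11, and CLIC3, an intracellular chloride channel protein, by 3.77 ± 0.12. GJB2, the gap junction protein connexin 26, was well above background in untreated cells too and gave 14.10, 14.09, 14.09 and 14.28 in 4 µM cells, against 10.11, 10.09, 10.41 and 10.15 in untreated cells. CDKN1A, the cyclin-dependent kinase inhibitor p21, gave 15.49, 15.50, 15.43 and 15.56 in 4 µM cells, against 11.64, 11.68, 11.73 and 11.52 in untreated cells. None of these genes had overlapping groups.

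**Figure D2:**
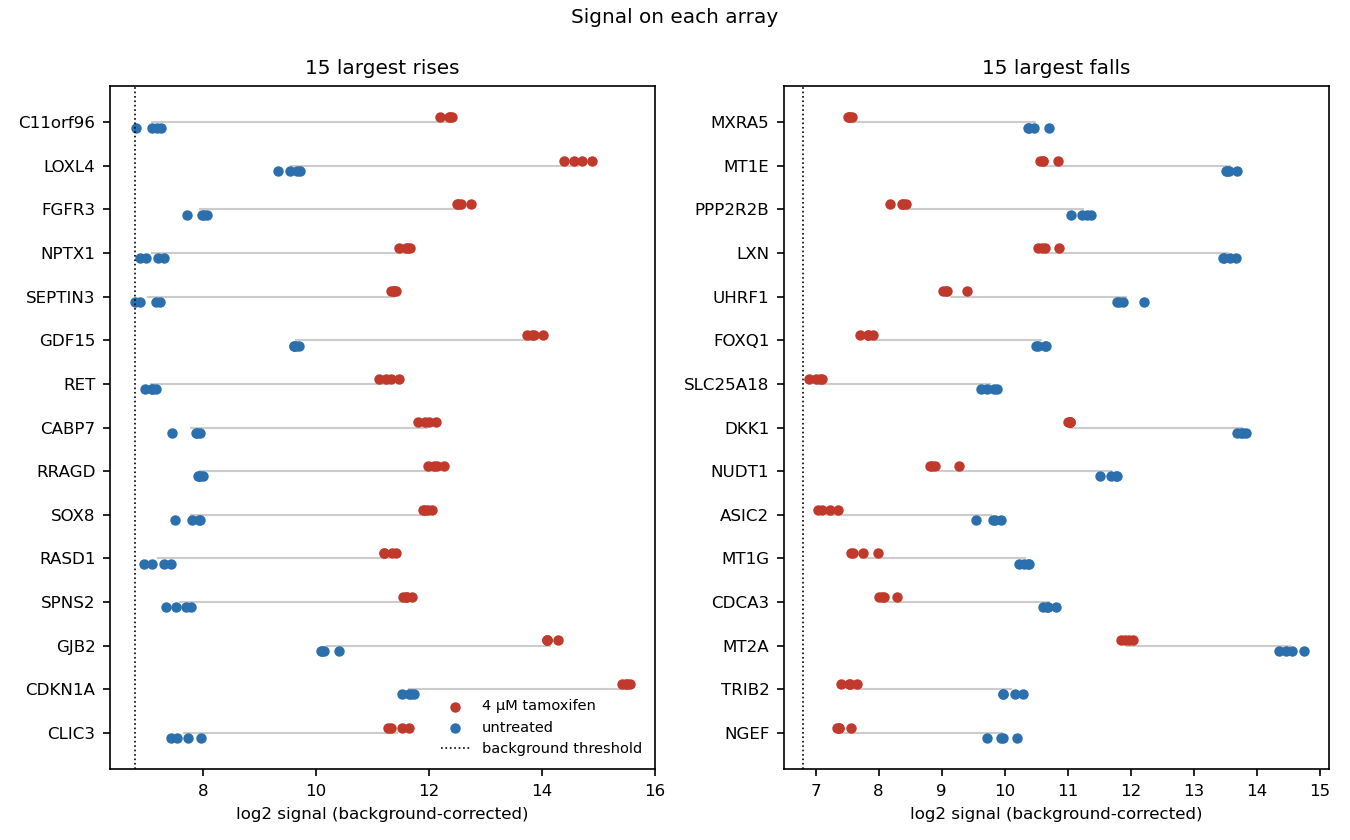
Background-corrected log2 signal on each array for the 15 largest rises (left) and the 15 largest falls (right) among called genes above background on all 8 arrays. Red points are the 4 arrays of 4 µM cells, blue points the 4 untreated arrays, grey lines join the group means and the dotted line is the background threshold. The points of a group lie close together beside the gap between groups, which runs from 3.77 to 5.24 on the log2 scale on the left and from -2.94 to -2.54 on the right.

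A further 265 named genes were above background on all 4 arrays of 4 µM cells and on none of the untreated arrays. Such a gene passed the filter through the treated arrays alone and so had to differ, which makes this count a description. Their folds are lower bounds, taken from the treated mean against the background threshold, or against the gene's own signal where that was higher, averaged over the untreated arrays. Each bound is for the brightest detected probe and not for the gene's other probes. The bound was at least 2-fold for 80 of the 265. The same bound is given below for genes whose untreated mean was under the threshold while single untreated arrays were above it with some probe of the gene, namely 1 array for AXIN2, BGN, SCNN1G and TLE2, 2 for IGFBP2, PTGDS, S100A8, SPINT1 and VDR, and 3 for AQP1, IGF2 and SCNN1B. The reverse pattern, above background on all untreated arrays and on none of the treated ones, held for 53 genes, of which 2 had a bound of at least 2-fold.

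MAL, a raft protein of apical transport first known from myelin and T cells, was at least 32.8-fold higher. It gave 11.69, 11.88, 11.93 and 11.81 in 4 µM cells, against 6.64, 6.56, 6.67 and 6.46 in untreated cells, where the untreated values are at background. The other detected MAL probe, also at background in untreated cells, rose by 3.15 on the log2 scale. HTR3C, a subunit of serotonin-gated ion channels, was at least 25.5-fold higher, and LCN2, a lipocalin that binds bacterial siderophores, at least 24.9-fold higher. LCN2 gave 11.82, 11.28, 11.28 and 11.35 in 4 µM cells, against 6.73, 6.55, 6.72 and 6.75 in untreated cells, and at 1 µM its mean was 11.59. S100A9, which pairs with S100A8 to form the neutrophil protein calprotectin, gave 11.03, 10.96, 10.92 and 11.17 in 4 µM cells, against 6.36, 6.19, 6.55 and 6.61 in untreated cells (at least 18.7-fold higher). S100A8 gave 11.25, 11.45, 11.42 and 11.54 in 4 µM cells, against 6.85, 7.02, 6.65 and 6.40 in untreated cells (at least 23.4-fold higher). Both calprotectin subunits had signal on every 4 µM array, and the untreated arrays lay at or near the background threshold.

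The other genes of the 10 with the largest bounds had mixed functions. All 10 were also above background on the 4 arrays of 1 µM cells. ZP1, an egg-coat protein, was at least 14-fold higher, APOD, a lipocalin of lipid transport, at least 11.8-fold, and S100A7A, an S100 protein of skin, at least 11.4-fold. GDPD5, a glycerophosphodiesterase, ERVMER34-1, an endogenous retroviral envelope gene, and TESC, a calcium-binding regulator of sodium-proton exchange, had bounds of 9.74-fold, 8.66-fold and 8.62-fold. PTGDS, a lipocalin and prostaglandin D2 synthase, was above background on 2 of the 4 untreated arrays and so fell outside this class. It gave 12.25, 12.11, 12.07 and 11.81 in 4 µM cells, against 6.84, 6.83, 6.64 and 6.26 in untreated cells (at least 38-fold higher).

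The falls were smaller and more even in size. MXRA5, a matrix-remodelling-associated protein, gave 7.51, 7.54, 7.53 and 7.58 in 4 µM cells, against 10.38, 10.70, 10.46 and 10.37 in untreated cells, and its log2 fold change was -2.94 ± 0.11 (adjusted p = 8.91e-22). LXN, the carboxypeptidase inhibitor latexin, gave 10.53, 10.59, 10.86 and 10.63 in 4 µM cells, against 13.66, 13.58, 13.48 and 13.46 in untreated cells. DKK1, a secreted Wnt antagonist, gave 11.04, 11.01, 11.04 and 11.03 in 4 µM cells, against 13.69, 13.75, 13.82 and 13.78 in untreated cells. In all 3 genes every treated array was more than 2 log2 units below every untreated array.

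UHRF1, which brings the maintenance methyltransferase DNMT1 to newly replicated DNA, gave 9.41, 9.06, 9.01 and 9.08 in 4 µM cells, against 11.80, 11.87, 11.78 and 12.20 in untreated cells (log2 fold change -2.77 ± 0.12). NUDT1, which destroys oxidised nucleotides, gave 8.82, 8.84, 9.28 and 8.90 in 4 µM cells, against 11.77, 11.77, 11.68 and 11.52 in untreated cells (log2 fold change -2.72 ± 0.12), and CDCA3, a trigger of entry into mitosis, changed by -2.59 ± 0.11. None of these genes had overlapping groups. FOXQ1, a forkhead transcription factor, gave 7.83, 7.83, 7.90 and 7.71 in 4 µM cells, against 10.52, 10.50, 10.66 and 10.64 in untreated cells (log2 fold change -2.76 ± 0.11).

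The rest of the 15 falls came from other systems. SLC25A18, a mitochondrial glutamate carrier, changed by -2.75 ± 0.11, ASIC2, an acid-sensing cation channel, by -2.60 ± 0.11, and NGEF, an exchange factor known from axon guidance, by -2.54 ± 0.11. PPP2R2B, a regulatory subunit of protein phosphatase 2A, fell by 2.89 with its brightest probe, but a second probe fell by 1.89 and another rose by 0.50, all called. Among the 53 genes with the reverse pattern, the 10 with the largest bounds were led by TPSG1, a tryptase (at least 3.48-fold lower), and ITGB4 (at least 2.57-fold lower). The other 8 had bounds of 1.64-fold to 1.85-fold and included the checkpoint adaptor CLSPN, the centromere protein CENPU and the atypical repressor E2F8.

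The promoters of some of these genes are shown because E47 binds E-boxes, and the 6 shown were picked for holding one of the hexamers below. The promoters of FGFR3, RET, MAL, DKK1, FOXQ1 and UHRF1, among others, hold neither in this window. Each line gives the 250 bases before the annotated start, 5′ to 3′ on the gene's strand (RefSeq, GRCh38.p14), with every CAGCTG in capitals, and likewise every CACCTG, which appears as CAGGTG where it lies on the opposite strand. The first 5 genes rose in 4 µM cells and the last fell.
CDKN1A: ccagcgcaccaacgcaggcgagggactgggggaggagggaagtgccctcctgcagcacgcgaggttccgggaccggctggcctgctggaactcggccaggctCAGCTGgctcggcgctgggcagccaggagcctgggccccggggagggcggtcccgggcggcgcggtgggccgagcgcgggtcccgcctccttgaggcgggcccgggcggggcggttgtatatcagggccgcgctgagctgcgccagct
GDF15: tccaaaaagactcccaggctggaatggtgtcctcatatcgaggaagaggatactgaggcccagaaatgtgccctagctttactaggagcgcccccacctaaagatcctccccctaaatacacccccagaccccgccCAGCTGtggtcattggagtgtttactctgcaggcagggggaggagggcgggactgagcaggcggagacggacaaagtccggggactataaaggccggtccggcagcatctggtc
LOXL4: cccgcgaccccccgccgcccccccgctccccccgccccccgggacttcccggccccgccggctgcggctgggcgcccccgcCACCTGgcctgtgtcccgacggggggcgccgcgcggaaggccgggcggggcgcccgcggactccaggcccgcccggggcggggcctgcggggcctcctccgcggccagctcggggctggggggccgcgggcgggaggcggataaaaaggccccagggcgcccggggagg
LCN2: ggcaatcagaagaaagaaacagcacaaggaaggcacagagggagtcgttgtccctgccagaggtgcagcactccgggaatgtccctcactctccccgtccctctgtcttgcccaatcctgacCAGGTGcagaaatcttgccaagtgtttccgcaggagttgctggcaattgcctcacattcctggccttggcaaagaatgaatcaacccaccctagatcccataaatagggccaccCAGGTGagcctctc
PTGDS: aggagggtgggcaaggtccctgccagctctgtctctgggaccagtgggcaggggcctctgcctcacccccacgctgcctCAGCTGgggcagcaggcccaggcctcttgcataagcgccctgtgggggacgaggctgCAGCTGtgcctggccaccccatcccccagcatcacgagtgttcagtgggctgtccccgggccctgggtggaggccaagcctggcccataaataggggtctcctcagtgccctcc
LXN: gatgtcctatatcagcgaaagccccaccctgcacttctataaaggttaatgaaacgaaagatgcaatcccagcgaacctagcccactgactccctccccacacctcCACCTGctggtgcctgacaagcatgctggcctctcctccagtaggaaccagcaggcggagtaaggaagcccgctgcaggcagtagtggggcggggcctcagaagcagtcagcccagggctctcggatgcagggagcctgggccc

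These windows lie at chr6:36678464-36678713, plus strand (CDKN1A), chr19:18385908-18386157, plus strand (GDF15), chr10:98268195-98268444, minus strand (LOXL4), chr9:128149203-128149452, plus strand (LCN2), chr9:136977254-136977503, plus strand (PTGDS) and chr3:158672649-158672898, minus strand (LXN). The CAGCTG of CDKN1A begins 148 bases before the start and that of GDF15 114 bases before it. LCN2 has 2 CAGGTG sites, 128 and 14 bases before the start, and PTGDS has 2 CAGCTG sites, at 171 and 114 bases. LOXL4 and LXN each have 1 CACCTG, at 169 and 144 bases. Other CANNTG hexamers are not marked.

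At least one of these hexamers was present in 4 of 9 promoters among the 15 largest rises (44.4%), in 6 of 13 among the 15 largest falls (46.2%), and in 6 of 8 among the 10 genes with the largest bounds above background in 4 µM and not in untreated cells (75.0%). It was present in 2 of 6 among the 10 with the reverse pattern (33.3%). The share was 28.5% of all 27305 promoters in the table and 26.3% of the 10271 that belong to a named gene tested. A hexamer in this window is a description of the sequence and not a measured site, and binding outside the window is not covered. The 4 sets are too small to be set against one another.

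Among basic helix-loop-helix factors, the family E47 belongs to, 8 of 40 tested members rose and 11 fell, beside 24.8% and 22.2% of all named genes. ATOH8, an atonal-related factor, gave 11.77, 11.19, 11.02 and 11.14 in 4 µM cells, against 7.84, 8.06, 7.74 and 7.90 in untreated cells (log2 fold change 3.39 ± 0.13). MXD1, which competes with MYC for MAX, rose (log2 fold change 1.42 ± 0.11), and so did SIM2 (log2 fold change 1.15 ± 0.11), whereas MYC fell (log2 fold change -1.05 ± 0.11). The clock factor NPAS2 and the hypoxia factor EPAS1 fell as well (log2 fold change -1.29 ± 0.11, and log2 fold change -1.13 ± 0.14).

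Nuclear receptors split in the same way. NR0B2, the orphan receptor SHP that represses other receptors, was at least 4.22-fold higher, and VDR, the vitamin D receptor, at least 2.31-fold higher. PPARG, a regulator of lipid storage genes, fell (log2 fold change -1.53 ± 0.12), as did the retinoid receptors RXRA and RARA (log2 fold change -0.86 ± 0.11, and log2 fold change -0.82 ± 0.13). Of 23 receptors and corepressors tested, 5 rose (21.7%) and 6 fell (26.1%), beside 24.8% and 22.2% of all named genes. Of the 15 above background on all 8 arrays, 2 rose and 6 fell. Among ETS factors the epithelial member ELF3 gave 10.49, 10.43, 10.56 and 10.55 in 4 µM cells, against 8.07, 8.19, 8.33 and 8.26 in untreated cells (log2 fold change 2.29 ± 0.11), while ELF4 fell (log2 fold change -1.03 ± 0.11). Of the 19 ETS factors tested 10 did not pass, beside 6863 of all 12954 named genes, so this count does not set the family apart.

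Lymphocyte genes known as targets or partners of E proteins mostly did not pass the filter on dim probes: 12 of 30 with a probe could be tested, and 4 were above background on all 8 arrays. LEF1 (log2 fold change 0.96 ± 0.11), IRF8 (log2 fold change 0.76 ± 0.13) and FOXO1 (log2 fold change 0.64 ± 0.12) were the largest rises, and IRF4 was the one fall (log2 fold change -0.32 ± 0.13), with overlapping groups and no call under several other settings, for example an adjusted p of 0.173 without the second 4 µM array. Of 20 genes known to be induced by the estrogen receptor in breast cells, 6 rose and 5 fell. The shares over all named genes were 24.8% and 22.2%, so these counts do not set the list apart. The falls in the list were 3 without 4 µM array 3 or without the fourth untreated array. RET and XBP1, a transcription factor of secretory cells (log2 fold change 1.37 ± 0.11), were the largest rises of that list, and IGFBP4 was the largest fall (log2 fold change -1.51 ± 0.13).

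Genes of DNA repair fell almost throughout. Of 47 tested, 39 fell, 2 rose and 6 did not pass, and the list's median log2 fold change was -0.86 beside -0.03 over all features. POLQ, the polymerase of theta-mediated end joining, changed by -1.82 ± 0.11, and NEIL3, a DNA glycosylase, changed by -1.78 ± 0.11. The tumour suppressor BRCA1 and its partner BARD1 changed by -1.18 and -1.12. The 6 Fanconi genes tested, which act on DNA crosslinks, ran from -1.76 to -0.13, and 5 of them fell. The rises were XPC, a sensor of damage for nucleotide excision repair (log2 fold change 0.35 ± 0.11), which was not called without the first 4 µM array (adjusted p = 0.0633), and XRCC2 (log2 fold change 0.49 ± 0.12), whose other probe was not called.

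The enzymes that supply DNA precursors fell with them. Of 39 genes of purine, pyrimidine and deoxynucleotide synthesis, 29 fell and 2 rose, or 1 without the fourth untreated array. TYMS, which makes thymidylate, gave 11.42, 11.25, 10.87 and 11.21 in 4 µM cells, against 13.48, 13.21, 13.38 and 13.36 in untreated cells (log2 fold change -2.17 ± 0.12). The ribonucleotide reductase subunits RRM1 and RRM2 fell (log2 fold change -1.25 ± 0.16, and log2 fold change -0.85 ± 0.13), while RRM2B, the subunit that p53 is known to induce, rose with its brightest probe (log2 fold change 0.61 ± 0.12) and was not called with the other.

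Histone genes moved in opposite directions by class. The clustered genes, whose mRNAs are normally made in S phase and end in a stem-loop rather than a poly(A) tail, rose in 15 of 19 tested and fell in 1, with a median of 1.04. Whether the labelling captured transcripts without a poly(A) tail was not tested, so which form of these transcripts rose is unknown. The histone genes outside the clusters, with CENPA and the stem-loop binding protein SLBP, rose in 0 of 12 and fell in 8, with a median of -0.67. H4C8 gave 9.19, 9.34, 9.28 and 9.31 in 4 µM cells, against 6.91, 6.95, 7.32 and 7.34 in untreated cells, and H2BC12 gave 14.08, 13.95, 14.12 and 14.13 in 4 µM cells, against 12.12, 11.85, 12.01 and 12.25 in untreated cells (log2 fold change 2.01 ± 0.11). The exception among the clustered genes was H4C3, which fell (log2 fold change -1.78 ± 0.13). CENPA, the histone of centromeres, fell (log2 fold change -2.05 ± 0.11), as did H2AX, which is phosphorylated at DNA breaks (log2 fold change -1.50 ± 0.16). Clustered histone genes are near-identical copies, so a probe can respond to several of them, and signal from one gene is uncertain.

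**Figure D3:**
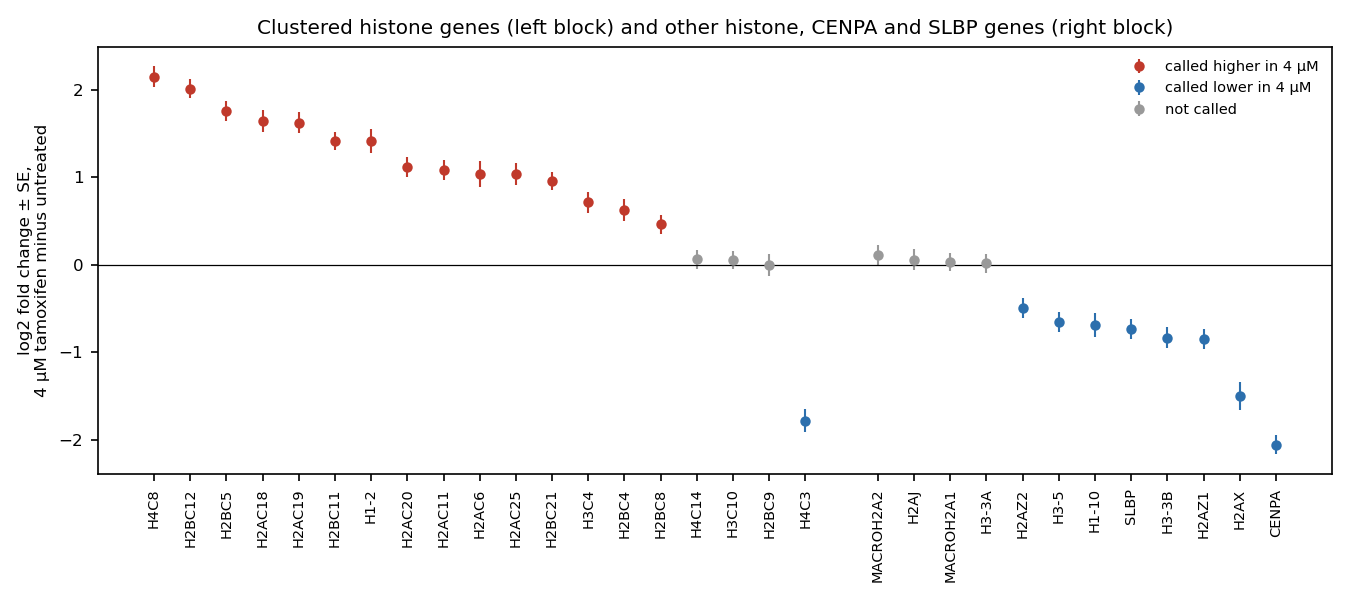
Log2 fold change, 4 µM tamoxifen minus untreated, with its standard error for each tested histone gene. The left block holds the 19 clustered genes and the right block the 12 other genes including CENPA and SLBP. Red points were called higher, blue points lower and grey points were not called. The left block lies above 0 but for H4C3 and points at 0, while the right block lies at or below 0.11.

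Chromatin proteins were lower more often than higher, in 35 and 6 of 70 genes. All 7 tested subunits of condensin, which compacts mitotic chromosomes, fell, and NCAPD2 fell most (log2 fold change -2.13 ± 0.11). Of 4 cohesin subunits 1 fell. LMNB1, a lamin of the nuclear lamina, gave 8.82, 8.60, 8.80 and 8.90 in 4 µM cells, against 11.07, 11.34, 10.96 and 11.06 in untreated cells (log2 fold change -2.33 ± 0.13), and ASF1B, a histone chaperone of replication, changed by -2.10 ± 0.12. DNMT1 fell (log2 fold change -1.33 ± 0.10) together with UHRF1. The demethylase KDM7A was at least 1.85-fold higher, and SMARCA1 (log2 fold change 0.96 ± 0.11) and HDAC11 (log2 fold change 0.96 ± 0.13) were the next largest rises.

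Motor protein genes changed in both directions. Among 27 kinesins 15 fell and 7 rose. The mitotic kinesins KIF20A, KIFC1 and KIF2C were the largest falls, with log2 fold changes of -2.49, -2.29 and -2.19. KIF1A, which carries synaptic vesicle precursors along axons, gave 12.83, 12.77, 12.46 and 12.48 in 4 µM cells, against 10.30, 10.18, 10.02 and 10.12 in untreated cells and rose (log2 fold change 2.48 ± 0.11). Dynein and dynactin genes rose in 5 of 13 and fell in 0. Of 16 tubulins 9 fell and 6 rose, with a median of -0.45. TUBA4A (log2 fold change 1.23 ± 0.12) and TUBB2B (log2 fold change 1.12 ± 0.12) were among the rises, and TUBB3, a tubulin of neurons, fell (log2 fold change -1.67 ± 0.11).

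Machinery of RNA and protein shifted down by smaller steps. Of 16 tested snRNP and LSM proteins, the core of the spliceosome, 15 fell, with a median of -0.55. HnRNP genes fell in 10 of 18 and rose in 3, led by HNRNPA1 (log2 fold change -1.07 ± 0.14) and HNRNPH2 (log2 fold change 0.94 ± 0.11). The other rises, HNRNPU and HNRNPDL, rest on the brightest probe, and each had another probe called lower (-0.98 and -0.51). Nucleoporins, which form the nuclear pore, fell in 17 of 26 and rose in 0, and NUP107 fell most (log2 fold change -1.36 ± 0.13). RCC1 and RANBP1, regulators of the transport GTPase Ran, fell too (log2 fold change -1.50 ± 0.11, and log2 fold change -1.24 ± 0.11).

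Cytosolic ribosomal proteins mostly stayed within the threshold: 56 of 70 did not pass, 13 fell and 1 rose, a rise that was lost when 1 of 8 of the 12 arrays was left out. RPL39L, a testis-enriched paralogue, was the largest fall (log2 fold change -1.46 ± 0.11). Mitochondrial ribosomal proteins fell in 33 of 73 and rose in 0, with a median of -0.24 and MRPS34 lowest (log2 fold change -1.28 ± 0.14). Subunits of the respiratory complexes and ATP synthase, in contrast, did not pass in 61 of 74, while 6 rose and 7 fell. The falls were 4 without the first 4 µM array. Proteasome subunits fell in 11 of 33 and rose in 0, and the stress-inducible chaperones HSPA1A and HSPA1B fell (log2 fold change -1.02 ± 0.12, and log2 fold change -1.06 ± 0.12).

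**Figure D4:**
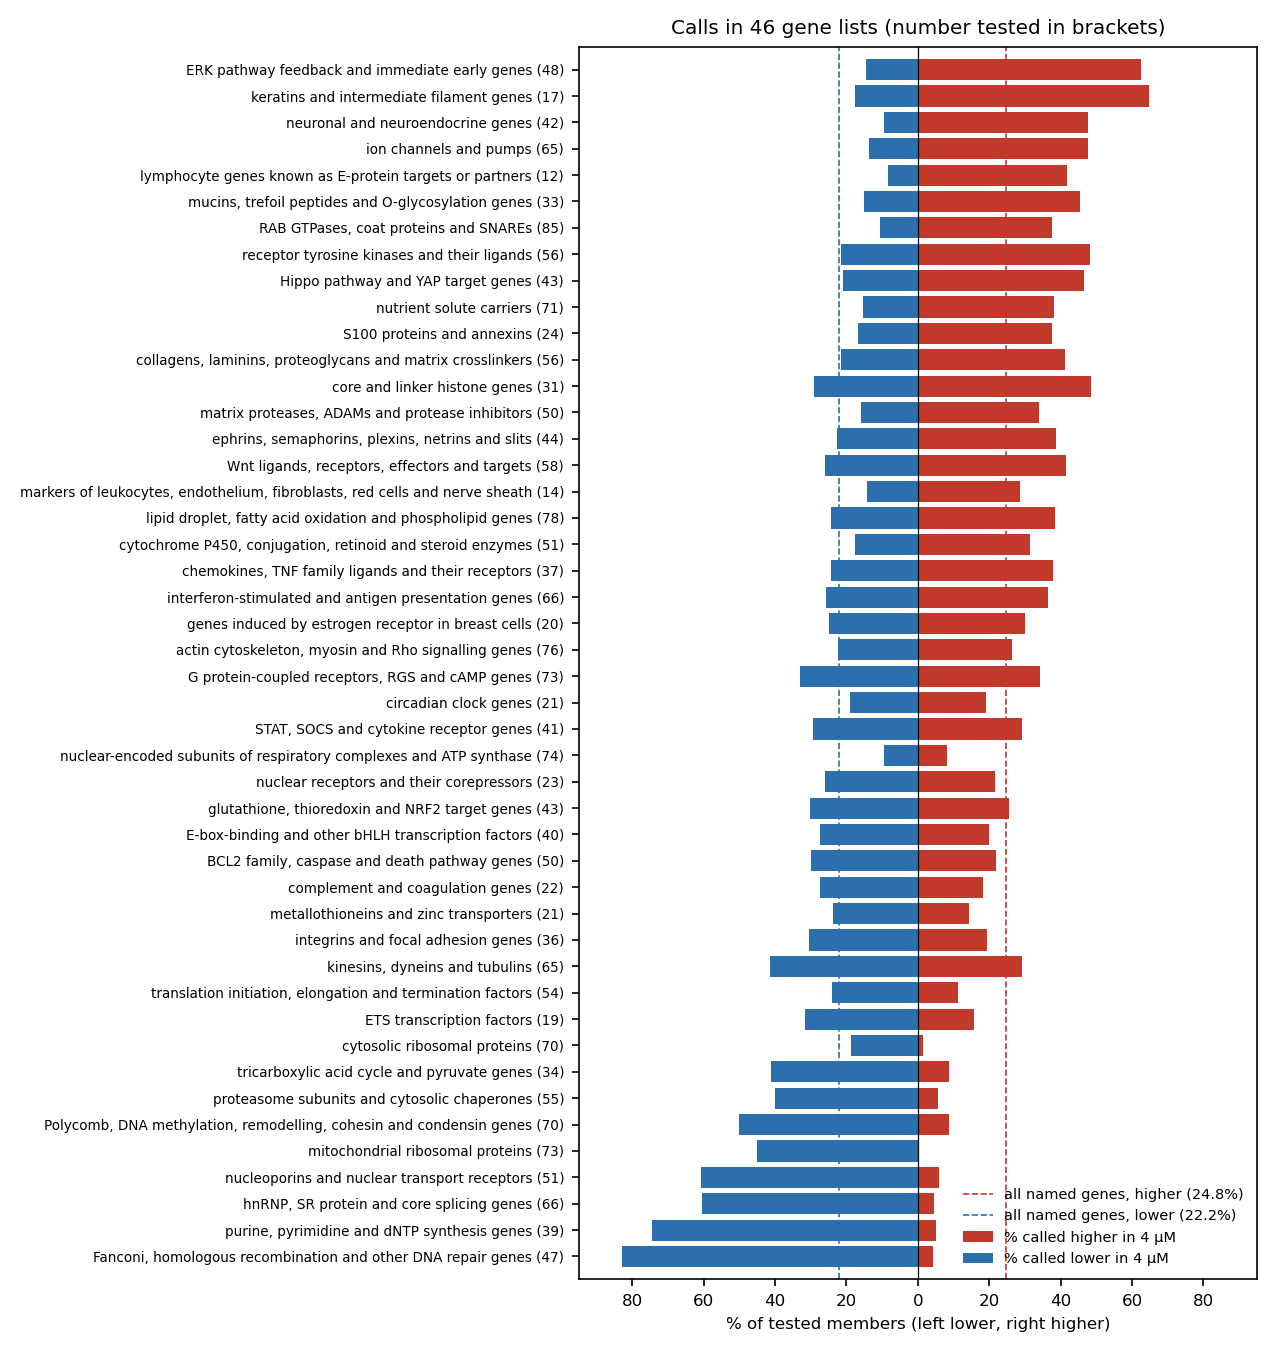
Share of the tested members of each of 46 gene lists called higher in 4 µM cells (red, to the right) or lower (blue, to the left), with the number tested in brackets. Dashed lines give the shares over all named genes tested, 24.8% higher and 22.2% lower. The lists run from ERK feedback genes at the top, with 62.5% higher and 14.6% lower, to DNA repair genes at the bottom, with 4.3% higher and 83.0% lower.

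Genes that answer growth factor signalling rose in most cases. Of 48 feedback and immediate early genes of the ERK pathway 30 rose and 7 fell, and among the 43 above background on all 8 arrays the counts were 27 and 7. DUSP5, a phosphatase that inactivates ERK in the nucleus, gave 12.24, 12.37, 12.38 and 12.60 in 4 µM cells, against 9.71, 9.87, 9.50 and 10.03 in untreated cells (log2 fold change 2.62 ± 0.12). Dual-specificity phosphatases as a family rose in 7 of 10, and KLF factors in 5 of 7, with KLF2 highest (log2 fold change 1.93 ± 0.11). The members were not uniform. TRIB1 gave 12.04, 11.74, 11.93 and 11.99 in 4 µM cells, against 9.24, 8.90, 9.04 and 9.19 in untreated cells, whereas its relative TRIB2 gave 7.40, 7.53, 7.54 and 7.66 in 4 µM cells, against 10.29, 10.16, 9.97 and 9.97 in untreated cells, and FOSL1, an AP-1 subunit, fell (log2 fold change -2.43 ± 0.15) while JUN rose (log2 fold change 1.24 ± 0.12).

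Receptor tyrosine kinases and their ligands rose in 27 of 56 and fell in 12, or 17 and 9 of the 34 above background on all 8 arrays. Beside FGFR3 and RET, the rises held FGFBP1, which releases fibroblast growth factors from the matrix (at least 6.95-fold higher), IGF2 (at least 3.5-fold higher), KITLG (log2 fold change 1.82 ± 0.14) and the collagen receptor DDR1 (log2 fold change 1.44 ± 0.12). The other detected DDR1 probe, with a mean of 6.92 in untreated cells, close to the background threshold, rose by 0.31. The other detected IGF2 probe, with an untreated mean of 6.82 near that threshold, rose by 1.08 on the log2 scale. ERBB2 rose by less (log2 fold change 1.02 ± 0.11), and EGFR rose with its brightest probe (log2 fold change 0.78 ± 0.11) and with another, while a further probe was not called. AXL, a receptor for GAS6, gave 11.17, 11.17, 11.23 and 11.29 in 4 µM cells, against 12.83, 13.11, 13.01 and 12.28 in untreated cells and fell (log2 fold change -1.59 ± 0.14), while its ligand GAS6 (log2 fold change 0.79 ± 0.11) and the related receptor MERTK (log2 fold change 1.07 ± 0.12) rose. MET and its relative MST1R fell (log2 fold change -0.74 ± 0.12, and log2 fold change -0.73 ± 0.13). NRG1, a ligand of ERBB3 and ERBB4, fell with its brightest probe (log2 fold change -1.73 ± 0.11), with another probe (-1.21) also lower and a further one not called. The NRG1 probe not called had means of 6.79 in 4 µM and 6.96 in untreated cells, near the background threshold.

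IGF-binding proteins, which hold insulin-like growth factors outside the cell, went different ways. IGFBP3 gave 10.33, 10.31, 10.36 and 9.97 in 4 µM cells, against 7.36, 7.72, 7.56 and 7.47 in untreated cells (log2 fold change 2.72 ± 0.12) and IGFBP4 gave 7.69, 7.77, 7.51 and 7.52 in 4 µM cells, against 8.93, 9.19, 8.93 and 9.49 in untreated cells, both without overlap. IGFBP2 rose (at least 1.87-fold higher) and IGFBP6 fell (at least 1.13-fold lower).

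The Wnt pathway had called members on both sides, 24 higher and 15 lower of 58, or 13 and 14 of the 39 above background on all 8 arrays. Among ligands WNT4 gave 9.32, 9.44, 9.34 and 9.09 in 4 µM cells, against 6.66, 6.31, 6.47 and 6.49 in untreated cells (at least 5.68-fold higher) and WNT3A rose (at least 2.2-fold higher), whereas WNT5B fell (log2 fold change -1.68 ± 0.13). The receptor FZD7 rose with its brightest probe (log2 fold change 2.08 ± 0.13) and by only 0.33 with its other detected probe, so the size of the rise rests on one probe. AXIN2, a negative regulator that is itself a common Wnt target, gave 10.16, 10.01, 10.03 and 9.89 in 4 µM cells, against 6.77, 6.53, 6.83 and 6.53 in untreated cells (at least 9.32-fold higher). NKD1 (at least 1.61-fold higher) and NOTUM (log2 fold change 1.17 ± 0.13), further feedback inhibitors that Wnt is known to induce, rose as well.

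Secreted Wnt antagonists moved apart. SFRP5 was at least 6.16-fold higher, while SFRP1 gave 7.88, 7.95, 7.80 and 7.96 in 4 µM cells, against 9.79, 9.82, 9.84 and 9.69 in untreated cells and fell (log2 fold change -1.89 ± 0.11), as did DKK1 and, with 3 of its 4 detected probes, DKK3 (log2 fold change -0.92 ± 0.11 with the brightest). The corepressors of the TLE family rose in 5 of 6, TLE2 being at least 7.89-fold higher and TLE6 having log2 fold change 2.44 ± 0.11. TCF7L1, a repressive TCF factor, fell (log2 fold change -1.10 ± 0.14).

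Hippo pathway genes and known targets of YAP rose in 20 of 43 and fell in 9. CCN2, a matrix signalling protein, gave 14.34, 14.68, 14.36 and 14.33 in 4 µM cells, against 11.82, 11.91, 12.08 and 12.10 in untreated cells (log2 fold change 2.45 ± 0.11), and THBS1, an adhesive glycoprotein, gave 11.23, 11.50, 11.40 and 11.44 in 4 µM cells, against 9.02, 8.87, 9.10 and 9.12 in untreated cells (log2 fold change 2.36 ± 0.12). ANKRD1 rose (log2 fold change 2.26 ± 0.15), whereas NT5E, the ecto-5′-nucleotidase CD73, gave 8.99, 9.08, 9.12 and 8.99 in 4 µM cells, against 11.06, 10.84, 10.86 and 10.65 in untreated cells (log2 fold change -1.81 ± 0.12). AXL, also a known YAP target, is among those that fell, so the targets did not move as a block.

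Ion channels and pumps rose in 31 of 65 and fell in 9, and among the 38 above background on all 8 arrays the counts were 21 and 7. KCNK3, a background potassium channel, gave 11.27, 11.10, 10.72 and 10.66 in 4 µM cells, against 7.63, 7.75, 7.73 and 7.60 in untreated cells (log2 fold change 3.26 ± 0.12), and AQP1, a water channel, gave 9.78, 9.68, 9.61 and 9.73 in 4 µM cells, against 6.37, 6.48, 6.75 and 6.39 in untreated cells (at least 7.5-fold higher). The other detected AQP1 probe, with an untreated mean of 6.88 near the background threshold, rose by 1.66 on the log2 scale. KCNF1, a modifier subunit of voltage-gated potassium channels, rose (log2 fold change 3.16 ± 0.12).

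The 3 subunits of the epithelial sodium channel were split. SCNN1A, the pore subunit, gave 7.11, 7.06, 6.96 and 6.99 in 4 µM cells, against 8.99, 8.88, 9.12 and 8.73 in untreated cells and fell (log2 fold change -1.90 ± 0.11). SCNN1B gave 8.38, 8.54, 8.21 and 8.26 in 4 µM cells, against 6.86, 6.82, 6.82 and 6.55 in untreated cells and SCNN1G gave 7.96, 8.25, 8.26 and 8.21 in 4 µM cells, against 6.51, 6.14, 6.64 and 6.69 in untreated cells, both higher in 4 µM cells and close to or below the background threshold in untreated ones. The sodium pump subunit ATP1B1 fell (log2 fold change -0.85 ± 0.11), and so did the calcium-activated potassium channel KCNN4 (log2 fold change -0.92 ± 0.11).

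Nutrient carriers rose in 27 of 71 and fell in 11. SLC48A1, a heme transporter, gave 11.63, 11.34, 11.37 and 11.34 in 4 µM cells, against 9.12, 9.12, 8.95 and 9.15 in untreated cells (log2 fold change 2.34 ± 0.11), and the phosphate carrier SLC20A2 rose (log2 fold change 1.88 ± 0.11). Glucose transporters of the GLUT family rose in 4 of 7, SLC2A1 having log2 fold change 1.65 ± 0.12 and SLC2A3 at least 2.25-fold higher. SLC19A1, the reduced folate carrier, fell (log2 fold change -1.33 ± 0.12), as did the nucleoside carrier SLC29A2 (log2 fold change -1.01 ± 0.13).

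Vesicle traffic genes rose in 32 of 85 and fell in 9. RAB26, a GTPase of secretory granules, gave 11.48, 12.08, 11.68 and 11.79 in 4 µM cells, against 9.71, 9.70, 9.69 and 9.78 in untreated cells (log2 fold change 2.04 ± 0.12), and the syntaxin STX11 rose (log2 fold change 1.40 ± 0.13). Subunits of the COPI coat of Golgi vesicles rose in 5 of 8 tested and fell in 0, with COPA at 0.71 ± 0.11 and COPB1 at 0.69 ± 0.12. SYTL2, an effector of RAB27, fell (log2 fold change -1.56 ± 0.11), and RAB27B fell with its brightest probe (log2 fold change -2.07 ± 0.11) but not with the other. That other RAB27B probe had means of 6.90 in 4 µM and 6.84 in untreated cells, near the background threshold, and was too dim to show a fall.

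Neuronal and neuroendocrine genes rose in 20 of 42 tested and fell in 4, though 20 of them were above background on all 8 arrays, of which 9 rose and 4 fell. SYP, the vesicle protein synaptophysin, rose (at least 2.62-fold higher), as did CPLX1, a complexin of vesicle fusion (log2 fold change 1.78 ± 0.13). SYT7 was higher with its brightest probe (log2 fold change 2.75 ± 0.11), rose by 0.43 with another and was not called with the other 2. Against these stood falls of L1CAM with its brightest probe (log2 fold change -1.42 ± 0.19), DPYSL2 (log2 fold change -1.34 ± 0.11) and TUBB3. ENO2, the enolase of neurons, had a log2 fold change of 0.25 and did not pass, although it was called higher without the third 4 µM array (adjusted p = 0.0291).

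G protein-coupled receptors and their regulators were even, with 25 higher and 24 lower of 73. NTSR1, the neurotensin receptor, gave 12.10, 12.17, 12.23 and 12.30 in 4 µM cells, against 9.74, 9.87, 9.76 and 9.53 in untreated cells (log2 fold change 2.48 ± 0.13), and its ligand NTS was at least 3.36-fold higher. The adenosine receptor ADORA2A rose (log2 fold change 2.38 ± 0.12) and ADORA1 fell with its brightest probe (log2 fold change -0.78 ± 0.11) but not with another. The prostaglandin receptor PTGER4 fell (log2 fold change -1.44 ± 0.11), and S1PR5 was above background on the untreated arrays and on no 4 µM array (at least 1.84-fold lower).

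Guidance molecules showed opposed members too. The semaphorin SEMA3A gave 11.49, 11.17, 11.29 and 11.22 in 4 µM cells, against 8.94, 8.89, 8.93 and 8.86 in untreated cells (log2 fold change 2.39 ± 0.11), the netrin NTN1 rose (log2 fold change 1.89 ± 0.12) and the netrin receptor UNC5A was at least 4.37-fold higher, while SLIT3 fell (log2 fold change -1.84 ± 0.12). EFNA1, an ephrin ligand, rose (log2 fold change 2.10 ± 0.12) and EPHB4, an ephrin receptor, fell (log2 fold change -0.85 ± 0.12). Of 44 tested, 17 rose and 10 fell, and of the 28 above background on all 8 arrays 11 rose and 9 fell.

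**Figure D5:**
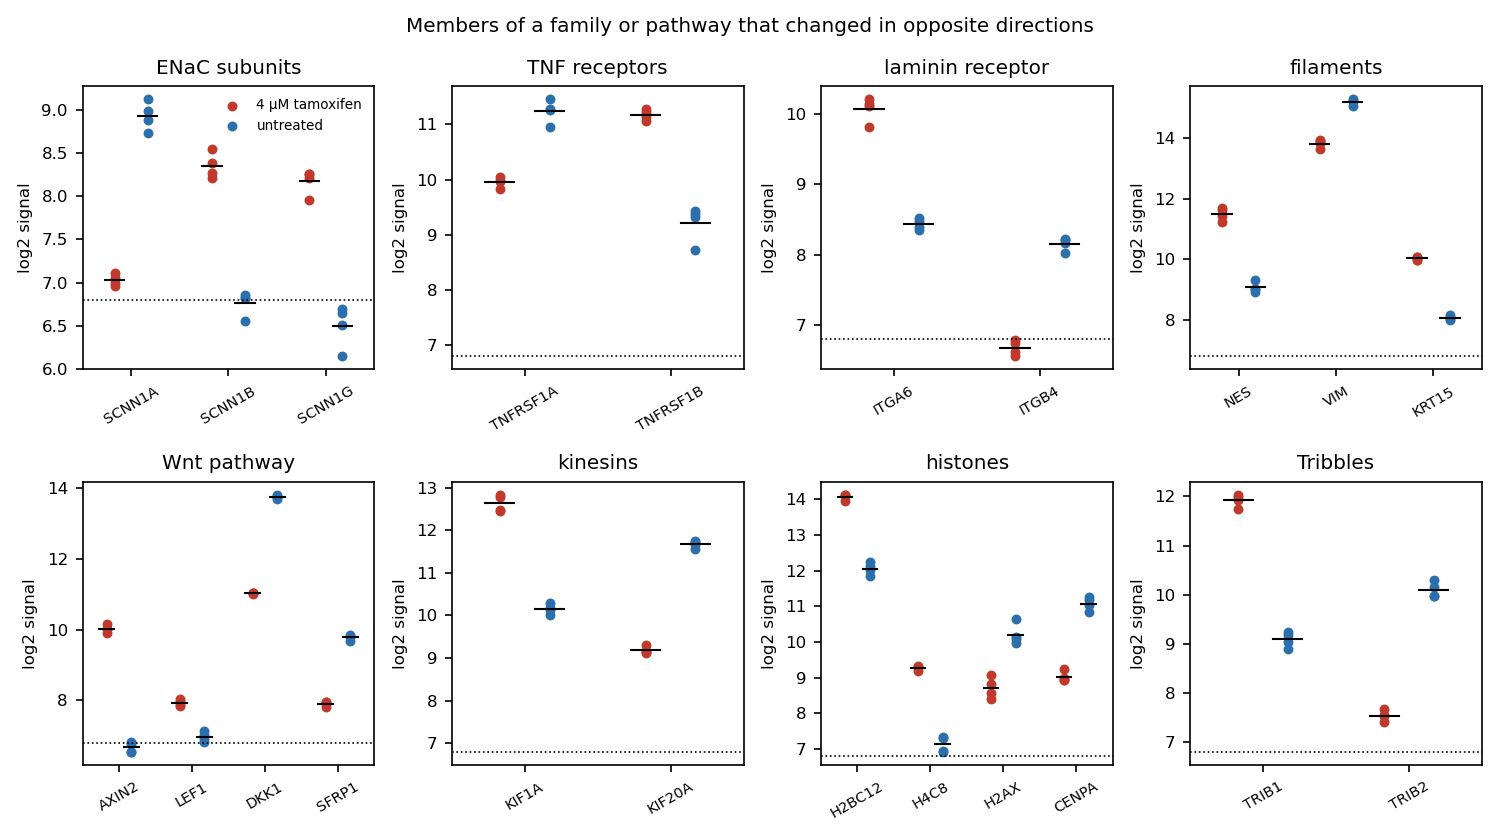
Background-corrected log2 signal on each array for members of a family or pathway that changed in opposite directions in 4 µM (red, left of each pair) and untreated (blue, right) cells. Short black bars are group means and the dotted line is the background threshold. In every gene shown the 4 points of one group lie on one side of the other group's 4 points. Signals of different genes come from different probes and are not comparable with each other.

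Matrix genes rose in 23 of 56 and fell in 12. Beside LOXL4, the proteoglycan BGN (biglycan) was at least 17.3-fold higher, and COL6A1, a chain of microfibrillar collagen, gave 12.20, 11.61, 11.56 and 11.80 in 4 µM cells, against 9.45, 9.16, 9.13 and 9.27 in untreated cells (log2 fold change 2.54 ± 0.13). COL1A1 is the main chain of fibrillar collagen. It gave 9.19, 8.92, 9.08 and 9.16 in 4 µM cells, against 7.28, 6.73, 7.18 and 7.08 in untreated cells. COL1A2, the chain it pairs with, had a log2 fold change of -0.01 and did not pass. The COL1A2 means were 6.81 in 4 µM cells and 6.82 in untreated cells, close to the background threshold. Its probe was above background on 3 arrays of 4 µM cells and 2 of untreated cells. Whether COL1A2 stayed constant cannot be read from a probe this dim. The basement membrane chains COL4A1 (log2 fold change 1.58 ± 0.11) and COL4A5 (log2 fold change 1.32 ± 0.12) rose, and laminins rose in 5 of 6. COL7A1, the anchoring fibril collagen of skin, fell (log2 fold change -1.78 ± 0.12), and so did MATN2 (log2 fold change -1.44 ± 0.11).

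Integrins, the receptors for this matrix, fell more often than they rose, in 7 and 2 of 18 subunits. ITGA2, part of a collagen receptor, gave 7.92, 8.02, 7.81 and 7.71 in 4 µM cells, against 9.78, 10.09, 10.02 and 10.27 in untreated cells (log2 fold change -2.17 ± 0.11), and ITGA3 fell (log2 fold change -1.13 ± 0.14). ITGA6 and ITGB4 together form the laminin receptor of hemidesmosomes. ITGA6 gave 9.81, 10.22, 10.13 and 10.14 in 4 µM cells, against 8.53, 8.39, 8.48 and 8.36 in untreated cells and rose (log2 fold change 1.64 ± 0.11), while ITGB4 gave 6.78, 6.54, 6.74 and 6.61 in 4 µM cells, against 8.17, 8.02, 8.23 and 8.21 in untreated cells. The focal adhesion protein PXN fell (log2 fold change -1.47 ± 0.12).

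Among extracellular proteases, TMPRSS2, a serine protease of epithelial membranes, gave 12.31, 12.29, 12.20 and 12.34 in 4 µM cells, against 8.90, 8.68, 8.59 and 9.12 in untreated cells (log2 fold change 3.46 ± 0.11), and the Kunitz inhibitor SPINT1 was at least 4.97-fold higher. PLAU, the urokinase that activates plasminogen, gave 11.43, 11.19, 11.29 and 11.09 in 4 µM cells, against 13.41, 13.30, 13.03 and 13.13 in untreated cells and fell (log2 fold change -1.97 ± 0.13). SERPINI1, the inhibitor neuroserpin, rose (log2 fold change 2.30 ± 0.11). The other detected SPINT1 probe, with an untreated mean of 6.87 near the background threshold, rose by 1.61 on the log2 scale. Of 50 proteases and inhibitors 17 rose and 8 fell, or 9 and 5 of the 27 above background on all 8 arrays.

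Most keratins rose while vimentin fell. Of 9 keratins tested, 8 rose and 0 fell, KRT15, a keratin of basal cells, being the largest (log2 fold change 1.96 ± 0.11). KRT18 rose by 0.65 with its brightest probe, although its groups overlapped and its other probe fell by 0.29. VIM, the mesenchymal filament vimentin, gave 13.84, 13.64, 13.94 and 13.91 in 4 µM cells, against 15.24, 15.06, 15.31 and 15.24 in untreated cells and fell (log2 fold change -1.38 ± 0.11), whereas NES, the filament nestin of progenitor cells, gave 11.69, 11.63, 11.25 and 11.45 in 4 µM cells, against 9.03, 9.03, 8.93 and 9.31 in untreated cells and rose (log2 fold change 2.43 ± 0.11). SYNM, which joins vimentin filaments, fell (log2 fold change -1.54 ± 0.11).

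Actin regulators were balanced, with 20 higher (26.3%) and 17 lower (22.4%) of 76. These shares are close to those of all named genes, 24.8% and 22.2%. ESPN, an actin bundler of microvilli and hair cells, rose (log2 fold change 2.22 ± 0.12). RAC2, a Rac GTPase best known from blood cells, gave 6.88, 6.99, 6.98 and 7.10 in 4 µM cells, against 9.16, 8.98, 9.10 and 9.18 in untreated cells and fell (log2 fold change -2.11 ± 0.12), as did the actin crosslinker ACTN1 (log2 fold change -1.10 ± 0.12) and the filopodial bundler FSCN1 (log2 fold change -0.97 ± 0.11).

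Immune genes gave a mixed picture. The class I genes HLA-B, HLA-C, HLA-E, HLA-F and HLA-G, which present peptides or engage natural killer cells, all rose, with log2 fold changes from 0.44 to 1.23. HLA genes are close paralogues, so their probes may share signal. Interferon-induced genes of the IFIT and IFITM families fell in 5 of 7 and rose in 0, and the 3 tested OAS genes fell. IFITM1 gave 7.57, 7.38, 7.70 and 7.51 in 4 µM cells, against 8.82, 8.49, 8.77 and 8.18 in untreated cells (log2 fold change -1.03 ± 0.14), and IFIT1 fell with one probe (log2 fold change -2.00 ± 0.13) and not with the other. That other IFIT1 probe had means of 6.69 in 4 µM and 6.81 in untreated cells, near the background threshold, and was too dim to show a fall. In the same list HERC5 (log2 fold change 1.09 ± 0.12), MX1 (log2 fold change 1.08 ± 0.12) and ISG15 (log2 fold change 1.04 ± 0.12) rose, so genes known to be induced by interferon were found on both sides.

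Chemokines, TNF-family ligands and their receptors rose in 14 of 37 and fell in 9, or 9 and 9 of the 24 above background on all 8 arrays. CXCL chemokines, which draw neutrophils and other leukocytes, rose in 6 of 8 and fell in 0. CXCL8 gave 10.03, 10.32, 10.21 and 10.21 in 4 µM cells, against 8.38, 7.97, 8.47 and 8.44 in untreated cells (log2 fold change 1.88 ± 0.12), and CXCL1 gave 10.38, 10.03, 10.38 and 10.25 in 4 µM cells, against 8.42, 8.15, 8.27 and 8.65 in untreated cells (log2 fold change 1.88 ± 0.17). CCL2 and CCL5 fell (log2 fold change -0.63 ± 0.12, and log2 fold change -0.60 ± 0.12). LTB, lymphotoxin beta, gave 11.01, 11.04, 11.25 and 11.11 in 4 µM cells, against 7.71, 7.99, 7.81 and 7.80 in untreated cells (log2 fold change 3.28 ± 0.12), and CD70, another ligand of the TNF family, fell (log2 fold change -1.72 ± 0.11). The receptors for TNF moved in opposite directions. TNFRSF1A gave 9.97, 9.83, 9.97 and 10.06 in 4 µM cells, against 11.26, 11.28, 10.96 and 11.46 in untreated cells and fell, and TNFRSF1B gave 11.06, 11.22, 11.27 and 11.13 in 4 µM cells, against 9.43, 9.37, 9.33 and 8.73 in untreated cells and rose.

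Cytokine signalling genes were even, with 12 higher and 12 lower of 41, or 29.3% each beside 24.8% and 22.2% of all named genes. IL17RB rose (log2 fold change 1.85 ± 0.11), SOCS1 rose (log2 fold change 1.18 ± 0.11) and SOCS3, an inhibitor of STAT signalling, rose with its brightest probe (log2 fold change 1.83 ± 0.11) but not with its other. STAT3 fell (log2 fold change -0.71 ± 0.11). Among the regulators of complement, CD59 fell (log2 fold change -1.27 ± 0.11), and TFPI, an inhibitor of coagulation, rose (log2 fold change 1.36 ± 0.10).

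Genes of cell death moved in no common direction. Of 50 tested, 11 rose and 15 fell. The pro-apoptotic BH3 proteins BMF and PMAIP1 rose (at least 5.7-fold, and log2 fold change 1.87 ± 0.12), while BID, of the same class, fell with 2 of its 3 detected probes (log2 fold change -1.51 ± 0.13 with the brightest). BCL2L1, which encodes the anti-apoptotic BCL-XL, rose (log2 fold change 0.88 ± 0.13). PYCARD, the inflammasome adaptor ASC, gave 10.79, 10.47, 10.54 and 10.24 in 4 µM cells, against 12.15, 11.90, 11.98 and 12.27 in untreated cells (log2 fold change -1.57 ± 0.12), and BIRC5, the mitotic protein survivin, fell (log2 fold change -1.96 ± 0.12).

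Metallothioneins, small proteins that bind zinc and copper, gave 3 of the 15 largest falls. MT2A gave 11.97, 12.03, 11.85 and 11.91 in 4 µM cells, against 14.46, 14.55, 14.34 and 14.74 in untreated cells, MT1E gave 10.56, 10.84, 10.61 and 10.60 in 4 µM cells, against 13.68, 13.56, 13.50 and 13.53 in untreated cells and MT1G gave 7.56, 7.60, 7.76 and 7.99 in 4 µM cells, against 10.37, 10.38, 10.30 and 10.22 in untreated cells, all without overlap. MT1F and MT1X, with log2 fold changes of -0.24 and -0.23, did not pass, although MT1F was called lower without the fourth untreated array (adjusted p = 0.0359). These genes are close paralogues, and their probes may share signal. SLC30A1, which exports zinc from the cell, rose (log2 fold change 1.44 ± 0.11), and most zinc importers did not pass.

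Redox genes were divided, 11 higher (25.6%) and 13 lower (30.2%) of 43, beside 24.8% and 22.2% of all named genes. HMOX1, heme oxygenase, rose (log2 fold change 1.14 ± 0.11), as did the glutathione transferases GSTA4 (log2 fold change 1.00 ± 0.11) and GSTM3 (log2 fold change 0.82 ± 0.11). CAT, catalase, gave 9.49, 9.94, 9.79 and 9.89 in 4 µM cells, against 11.26, 11.30, 10.89 and 11.12 in untreated cells and fell (log2 fold change -1.36 ± 0.12), with SRXN1 (log2 fold change -1.14 ± 0.11) and NQO1 (log2 fold change -0.91 ± 0.11). Of 34 genes of the tricarboxylic acid cycle and pyruvate use 14 fell and 3 rose. MPC1, a subunit of the mitochondrial pyruvate carrier, averaged 12.21 ± 0.15 in 4 µM cells and 10.21 ± 0.18 in untreated cells (SD, n = 4 each) and was the largest rise (log2 fold change 1.99 ± 0.12), while its partner MPC2 had a log2 fold change of -0.09 and did not pass.

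Lipid storage and oxidation genes rose in 30 of 78 and fell in 19, or 22 and 18 of the 64 above background on all 8 arrays. AGPAT2, an acyltransferase of triglyceride synthesis, gave 11.82, 11.80, 11.78 and 11.91 in 4 µM cells, against 9.31, 9.20, 9.33 and 9.24 in untreated cells (log2 fold change 2.56 ± 0.11), and the ceramide synthase CERS4 rose (at least 3.76-fold higher). FABP5, a fatty acid carrier, fell (log2 fold change -1.25 ± 0.11), as did the lipid droplet protein PLIN3 (log2 fold change -1.24 ± 0.10). Cytochrome P450, conjugation, retinoid and steroid enzymes rose in 16 of 51 and fell in 9, or 10 and 8 of the 36 above background on all 8 arrays. ALDH1A3, which makes retinoic acid, rose (log2 fold change 1.73 ± 0.13), together with the retinoic acid hydroxylase CYP26A1 (log2 fold change 1.66 ± 0.12) and the carrier CRABP2 (log2 fold change 1.56 ± 0.11), while the retinal reductase DHRS3 fell (log2 fold change -1.18 ± 0.13).

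Mucin and glycosylation genes rose in 15 of 33 and fell in 5. GCNT1, which branches O-glycans, was at least 2.55-fold higher, and the sialyltransferase ST3GAL4 rose (log2 fold change 1.35 ± 0.12), whereas GALNT2, which starts O-glycans, fell (log2 fold change -0.92 ± 0.12). Among circadian clock genes 13 of 21 did not pass, beside 6863 of all 12954 named genes. CRY1 and CRY2 rose (log2 fold change 0.78 ± 0.11, and log2 fold change 0.83 ± 0.11) and NPAS2 fell. Without the fourth untreated array the rises among clock genes were 2 and not 4. S100 proteins rose in 7 of 13 and fell in 2, and of the 17 S100 and annexin genes above background on all 8 arrays 3 rose and 4 fell, S100A13 having log2 fold change 2.76 ± 0.13, while S100A3 fell (log2 fold change -1.03 ± 0.11).

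Where a gene had several detected probes, the brightest was used. Of 3547 such genes, all probes were called in one direction in 1080, some were called and some not in 1169, none were called in 1259, and probes were called in opposite directions in 39. The largest gaps were in PPP2R2B, PTP4A3, PCLAF, ORC6 and ALYREF. PCLAF, a partner of the replication clamp, had a brightest probe that rose by 0.40 and 2 others that fell by 1.79 and 1.82. ORC6, of the origin recognition complex, rose by 0.37 with one probe and fell by 1.69 with the other. ALYREF, an mRNA export factor, fell by 1.13 and rose by 0.69, and PTP4A3, a phosphatase, rose with 4 of its 5 detected probes. Which transcript each probe reads was not tested.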

How the data were processed

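RNA of 12 PANC-1 samples was read on Illumina bead arrays, and 4 arrays of 4 µM cells are compared here with 4 of untreated cells. The authors deposited linear probe intensities for each array, made with GenomeStudio per the submitters' processing notes. Its version is not given in the sources at hand. The intensities had nearly identical distributions on all arrays, and no further normalization between arrays was applied. The number of arrays limits the precision. A second table holds 24 value and detection columns under names that match no sample label, and it was not used.

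Of 47323 probes, 30113 had 1 gene in the platform annotation, 8 several and 17202 none, and 30081 had a symbol in RefSeq's list (GRCh38.p14). Background was the mode of the intensities (99.4) with the SD of its lower side (14.7). A probe above the mode by 1.645 SD (an intensity of 123.62, which lies at 6.79 on the corrected log2 scale) was above background, and probes so on at least 4 of 12 arrays were kept. The brightest detected probe stood for a gene. Values were corrected with limma's normexp on the signals alone (offset 50) and taken to log2.

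Group means were fitted over all 12 arrays with limma 3.58.1 in R 4.3.3 (9 residual and 24.4 prior degrees of freedom), with two-sided Benjamini-Hochberg adjusted p-values over 19713 features. ± is the standard error of the log2 fold change unless an SD is named. The fit was tested on simulated data. No 2 arrays were identical.

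The comparison, the gene lists and the genes named were chosen with earlier results of these data known. The rule for named genes took 15 called genes in each direction, by size, that were above background on all 8 arrays and whose groups did not overlap. It added the 10 largest bounds in each direction among genes above background on all arrays of 1 group and on none of the other. It also took 3 called members of each list in each direction, TCF3, ESR1 and the 5 genes with the widest gap between probes called in opposite directions. A further 82 genes in the text were chosen after their values were seen. Some genes that the rule takes are not reported here.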

Additional observations from a re-analysis of the deposited data

Results flagged for a closer look

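Dixon's test was applied to each gene given with values, in each group of 4 arrays. In 36 of 558 groups the highest or lowest array lay apart from the other 3, past the critical value. Chance marks about 1 in 20 groups, and the values below are given with no explanation.

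These are background-corrected log2 signals. The first array of 4 µM cells stood apart for EPCAM at 9.30, FABP5 at 9.74, LCN2 at 11.82, SCNN1G at 7.96 and SLC48A1 at 11.63. The second array of 4 µM cells stood apart for CCN2 at 14.68 and FZD7 at 11.72. The third array of 4 µM cells stood apart for DEPTOR at 9.60, KIFC1 at 9.78, NFE2L3 at 9.90, POLQ at 7.61 and TUBB2B at 13.13. The fourth array of 4 µM cells stood apart for CD14 at 6.81, GJB2 at 14.28, IGFBP2 at 7.62, IGFBP3 at 9.97, IGFBP6 at 6.21, NGEF at 7.57 and PMAIP1 at 10.29. The second array of untreated cells stood apart for ELF4 at 11.71, HNRNPH2 at 10.82, LCN2 at 6.55, POLQ at 9.85 and S1PR5 at 7.23. The third array of untreated cells stood apart for CCL2 at 12.19, FABP5 at 10.87, KRT7 at 7.36 and SLC48A1 at 8.95. The fourth array of untreated cells stood apart for CABP7 at 7.45, CD70 at 11.47, DHRS3 at 10.37, ISG15 at 11.21, S100A13 at 10.53, SCNN1B at 6.55, SYTL2 at 10.87 and TNFRSF1B at 8.73.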

How the results depend on the processing

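Over all alternatives run, 3188 to 4129 features were higher in 4 µM cells and 3453 to 4137 lower, beside 3922 and 3858. These alternatives were no background correction, an offset of 16, no detection filter, only features above background on all 8 arrays, only the 8 arrays, the mean of a gene's detected probes, median centring, an intensity trend, array weights, the replicate block and leaving out each of the 12 arrays. Same-numbered arrays had residual correlations of -0.041 to 0.109, and 1 of 4 correlated best with its own number, so the replicate numbers were not taken to pair the samples. With the replicate number as a block the counts were 3959 and 3896, and centring on the median gave 3688 and 4134. Leaving out 1 array gave 3540 to 4011 higher and 3453 to 3956 lower. The mean of all detected probes changed the sign of 4 genes, whose probes move in opposite directions: HNRNPU (-0.31), ORC6 (-0.66), PCLAF (-1.07) and HNRNPDL, which came close to 0 (-0.02). Among the calls lost under some settings were those of EPCAM, SOX9, IRF4, XPC, XRCC2 and KRT18, and ENO2 and MT1F each gained a call when 1 array was left out. Splicing genes had 5 rises without the third untreated array, beside 3, and the rises among nuclear transport genes were 1 without the second untreated or the fourth 4 µM array, beside 3. Mitochondrial ribosomal proteins had 1 rise without the first 4 µM array, beside 0, and proteasome and chaperone genes had 1 without the fourth 4 µM array, beside 3. The cause of these differences was not tested.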

Other observations

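Several of the strongest changes lay outside the gene lists, and the genes of this section were chosen after their values were seen. RAET1G, a ligand of the natural killer receptor NKG2D, gave 11.42, 11.58, 11.58 and 11.54 in 4 µM cells, against 6.48, 6.60, 6.56 and 6.72 in untreated cells (at least 26.6-fold higher). The other detected RAET1G probe rose by 3.45 on the log2 scale. CCND2, a G1 cyclin, gave 10.10, 10.01, 9.97 and 10.09 in 4 µM cells, against 5.97, 6.14, 6.10 and 6.30 in untreated cells with its brightest probe (at least 9.51-fold higher). The other detected CCND2 probe, with an untreated mean of 6.87 near the background threshold, rose by 1.90 on the log2 scale. The kisspeptin receptor KISS1R (log2 fold change 3.73 ± 0.14) and its ligand precursor KISS1 (at least 4.88-fold higher) were both higher. Secreted factors among the rises were TGFB3 (log2 fold change 3.70 ± 0.11), BMP7 (log2 fold change 3.23 ± 0.13), GAL, the neuropeptide galanin (log2 fold change 3.24 ± 0.11), and MGP, an inhibitor of matrix calcification (log2 fold change 3.47 ± 0.14). CEBPA, a transcription factor of differentiated fat, liver and myeloid cells, gave 10.29, 9.84, 10.02 and 10.00 in 4 µM cells, against 6.69, 6.80, 6.52 and 6.84 in untreated cells (at least 9.41-fold higher). ABCA1, the cholesterol exporter, rose (log2 fold change 3.22 ± 0.14), as did CREG1 (log2 fold change 3.51 ± 0.11), DEPTOR, a protein bound to mTOR (log2 fold change 2.52 ± 0.11), FURIN, a proprotein convertase (log2 fold change 2.17 ± 0.13), and the imprinted non-coding RNA H19 (log2 fold change 2.00 ± 0.13).

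Falls outside the lists included SOX21 (log2 fold change -2.47 ± 0.11), a SOX factor of neural progenitors, NFE2L3 (log2 fold change -2.26 ± 0.10), a relative of NRF2, and APOBEC3B (at least 4.05-fold lower), a DNA cytidine deaminase. ANPEP, the membrane aminopeptidase CD13, gave 9.67, 9.36, 9.20 and 9.24 in 4 µM cells, against 11.51, 11.37, 11.05 and 11.55 in untreated cells (log2 fold change -2.01 ± 0.15). WT1 (log2 fold change -1.83 ± 0.12) and TFAP2A (log2 fold change -1.77 ± 0.11), transcription factors of developing tissues, were lower. CD44, a hyaluronan receptor, gave 12.48, 12.65, 12.63 and 12.67 in 4 µM cells, against 14.25, 14.32, 14.59 and 14.34 in untreated cells, and the groups did not overlap (log2 fold change -1.77 ± 0.11). Counting any probe of the gene, 1 of the 4 untreated arrays was above background for RAET1G and KISS1, 2 for CEBPA and 3 for CCND2, as were 2 of the 4 treated arrays for APOBEC3B.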
